A study of Mus musculus with 6 samples.

Results

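The immediate early genes described here are Fos, Fosb, Jun, Junb, Jund, Egr1, Ier2, Dusp1, Zfp36 and Btg2. They were taken by their symbols from the authors' table of CPM (read counts scaled to the depth of each library), in which each had 1 row, giving 10 of 46959 rows. All 10 had at least 1 CPM in at least 3 libraries and so were among the 12955 genes tested. Immediate early genes are transcribed within minutes of a growth factor, cytokine or stress signal, without the need for new protein, because the factors that bind their promoters are already in the cell and are switched on by MAP kinases and other kinases. Their products include the AP-1 and EGR transcription factors and the inhibitors that end the response, such as phosphatases that switch MAP kinases off and proteins that speed the decay of the same short-lived mRNAs. In haematopoietic stem cells (HSCs) Egr1 is known as a factor that helps keep the cells quiescent and in their niche.

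The series profiled RNA of HSCs sorted from the bone marrow of control and MaeaCsf1r-Cre littermates, with 3 libraries of 2000 cells for each group. Maea encodes a subunit of an E3 ubiquitin ligase, and in MaeaCsf1r-Cre mice a floxed Maea is deleted by Csf1r-Cre, whose driver is best known from mononuclear phagocytes, so that macrophages of the marrow can lose the gene as well. The mice were on a C57BL/6 background and of both sexes, their age was 8 weeks per the series' design text and young adult over a wider span per the study's methods, the cells of a library were pooled from a pair of mice, and the labels give the control mice no alleles. Maea itself was at 108, 116 and 123 CPM in the control libraries (given here and below in the order of replicates 1, 2 and 3) and at 76.9, 88.6 and 101 CPM in the MaeaCsf1r-Cre libraries. The groups did not overlap for Maea, and the log2 fold change was -0.39 (SE 0.13; limma, adjusted p = 0.967, and 0.218 when replicate numbers entered the fit as a block).

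The HSC identity of the libraries, which the study defines as lineage- Sca-1+ c-kit+ CD150+ CD48- cells, was checked with 12 markers, among them Kit (c-kit), Slamf1 (CD150), Procr and Mecom. All 12 passed the filter on low values. Of the 8 B cell markers Cd79a, Ms4a1, Pax5 and Igll1 stayed below 0.1 CPM in every library, while Cd79b was at 12.9 to 27.2 CPM, and the 8 summed to 17.0 to 28.0 CPM in control and 13.6 to 24.7 in MaeaCsf1r-Cre libraries. Of the 8 T and NK cell markers Cd3e, Cd3d, Cd3g, Cd8a and Ncr1 stayed below 0.1 CPM, while Nkg7 was at 38.7 to 85.4 CPM, Cd4 at 0.272 to 3.16 and Klrb1c at 0.985 to 3.43. Transcripts of macrophages, granulocyte precursors, erythroblasts and megakaryocytes were present and differed between libraries, and their values are given beside the results. The steps between low CPM values placed 32964000 to 60926000 reads behind the scaling of a library, so that 3 reads corresponded to 0.0492 to 0.0910 CPM, which covers counting error only. The lowest value of any of the 10 genes was 2.67 CPM (Fosb), far above that level.

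Sequences upstream of an annotated start of 6 of the genes are shown because they hold letters known to be bound by factors that growth factor, cytokine and stress signals switch on. A RefSeq promoter (GRCm38.p6, 250 bases before to 50 bases after the start) was given for 8 of the 10 genes, not for Egr1 and Ier2. For Fosb this start lies inside the gene position given below, which reaches 19310118, and so do its marked letters. Capitals mark TGACG, the letters of a cAMP response element bound by CREB and ATF proteins, or its full form TGACGTCA, or in Zfp36 the CArG box bound by serum response factor. The windows, written 5' to 3' on the strand of the gene, lie at chr12:85473799-85473863 (plus strand) for Fos, chr7:19310066-19310130 (minus) for Fosb, chr8:84978815-84978879 (minus) for Junb, chr17:26508573-26508640 (minus) for Dusp1, chr1:134079279-134079346 (minus) for Btg2 and chr7:28379242-28379311 (minus) for Zfp36.
Fos: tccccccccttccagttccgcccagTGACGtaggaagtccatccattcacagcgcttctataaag
Fosb: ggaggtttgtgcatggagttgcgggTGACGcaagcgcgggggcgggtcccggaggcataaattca
Junb: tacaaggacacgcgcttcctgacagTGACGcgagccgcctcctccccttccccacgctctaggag
Dusp1: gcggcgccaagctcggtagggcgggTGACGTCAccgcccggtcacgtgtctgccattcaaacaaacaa
Btg2: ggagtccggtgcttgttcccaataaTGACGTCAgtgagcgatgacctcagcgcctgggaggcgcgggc
Zfp36: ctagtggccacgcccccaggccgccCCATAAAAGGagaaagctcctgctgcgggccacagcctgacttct

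Read on both strands, TGACG was in 5 of the 8 promoters and in 20.8% of 32851 RefSeq promoters of the same length. Its full form TGACGTCA, which contains TGACG, was in 2 of the 8, at -143 in Dusp1 and -166 in Btg2, and in 1.79% of all. The CArG box was in 1 of the 8, at -58 in Zfp36, and in 1.63% of all. The binding letters of EGR proteins (GCGGGGGCG or GCGTGGGCG), which can overlap a GC box, were in the promoters of Fosb at -50 and Zfp36 at -105, and in 3.47% of all. The AP-1 letters TGACTCA or TGAGTCA were in 0 of the 8 and in 5.2% of all. The letters of a TATA box (TATAAA) were in 2 of the 8, at -33 in Fos and at 1, the start itself, in Junb, and in 13.6% of all. These matches describe letters within the windows only.

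All 10 genes had a lower mean level in MaeaCsf1r-Cre than in control HSCs, but the groups overlapped for each of them and none passed the test. The mean fold of control over MaeaCsf1r-Cre ran from 1.06 for Junb to 1.67 for Egr1. At an adjusted p under 0.05 limma called 0 of the 10 genes, with or without a block for the replicate number, and 0.00772% of all genes tested in either fit. At an unadjusted p under 0.05 it called 0 of the 10 without the block, where 3.99% of all genes were called, and 5 with it (Fos, Fosb, Egr1, Dusp1 and Zfp36), where 13.9% were. The groups did not overlap for 0 of the 10 genes and for 8.55% of all genes tested, and the log2 fold change was below 0 for 10 of the 10 and for 60.9% of all. In bulk RNA of sorted cells, fewer cells that express a gene cannot be told apart from less RNA of it per cell.

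**Figure D1:**
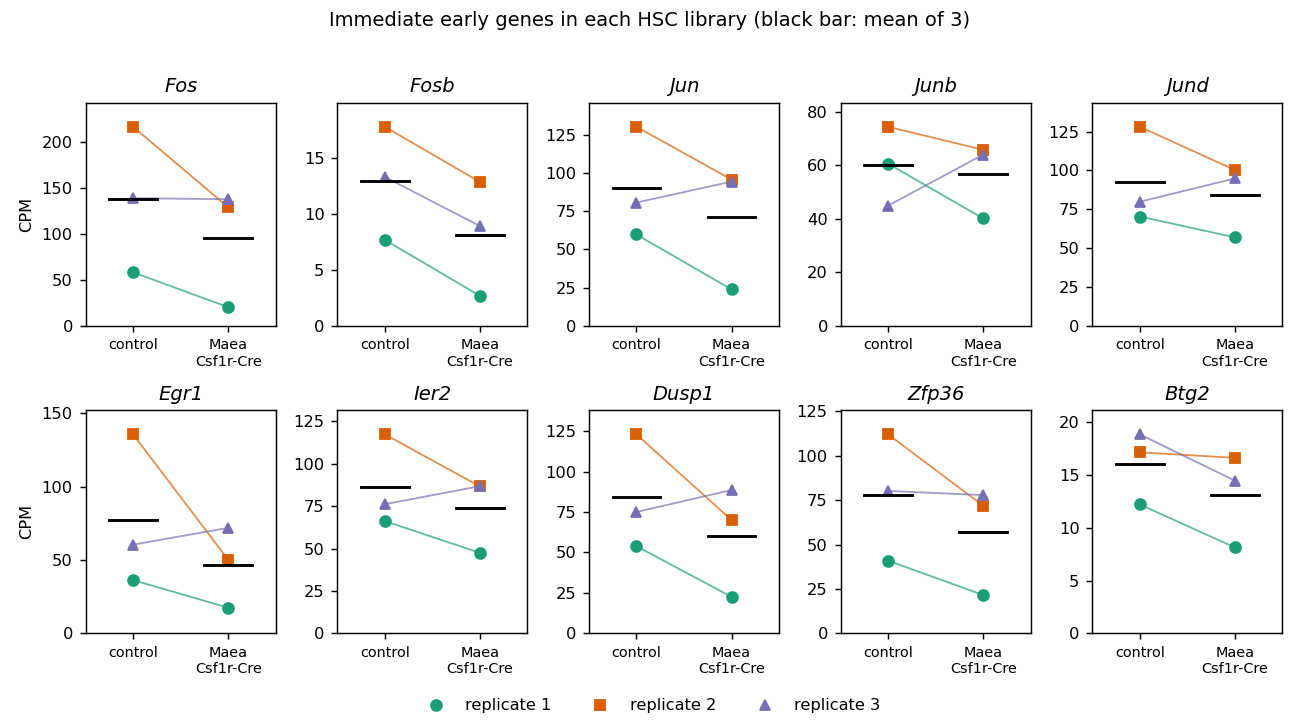
CPM of each of the 10 genes (vertical axis, linear and starting at 0, scaled for each gene) in the control and MaeaCsf1r-Cre libraries, with a line joining libraries of the same replicate number and a black bar at the mean of 3. Replicate 1 of MaeaCsf1r-Cre was the lowest library in all 10 panels, and control replicate 2 was the highest in 9.

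The Fos and Jun proteins pair to form AP-1. Fos (chromosome 12, 85473890 to 85477274, GRCm38) encodes its strongly inducible partner, and was at 58.1, 216 and 139 CPM in the control libraries. In MaeaCsf1r-Cre it was at 20.2, 129 and 137 CPM. Control replicate 2 was highest and MaeaCsf1r-Cre replicate 1 lowest, while the third libraries of both groups were nearly level. The group means were 138 ± 79.1 and 95.5 ± 65.3 CPM (SD, n = 3 each), and the log2 fold change was -0.74 (SE 0.75; limma, adjusted p = 0.967). With the block the SE was 0.24 and limma's adjusted p was 0.273.

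Fosb (chromosome 7, 19302696 to 19310118), the close relative of Fos, was at 7.67, 17.8 and 13.3 CPM in control and 2.67, 12.8 and 8.91 CPM in MaeaCsf1r-Cre libraries. Each MaeaCsf1r-Cre library was below its same-numbered control, although the groups overlapped. Its log2 fold change was -0.74 (SE 0.50; limma, adjusted p = 0.967, and 0.250 with the block). Per kilobase of its longest annotated transcript, Fosb was the lowest of the 10 genes, at 3.41 ± 1.34 CPM per kb in control (SD, n = 3), and Fos the highest, at 65.3 ± 37.5.

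Jun (chromosome 4, 95049036 to 95052222), an intronless gene whose protein binds DNA as a pair with itself or with Fos, was at 59.8, 130.3 and 80.6 CPM in control libraries. In MaeaCsf1r-Cre it was at 23.8, 95.7 and 94.4 CPM. Here MaeaCsf1r-Cre replicate 3 was above its control and the other two were below theirs. For Jun the log2 fold change was -0.50 (SE 0.53; limma, adjusted p = 0.967, and 0.418 with the block). The antisense gene Junos overlaps Jun, and the library kit did not mark strand, so reads of the overlap cannot be assigned to either. The same limit can hold for Junb, Jund, Dusp1 and Zfp36, which overlap Prdx2, Gm11175, Ergic1 (with Gm8225 and 2 small annotated genes on the strand of Dusp1) and Gm44710. These overlaps are of whole gene spans in GENCODE, and exons were not compared. For Junb (to 84974484), Dusp1 (to 26562128) and Zfp36 (to 28380253) these spans reach beyond the RefSeq positions given below.

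Junb (chromosome 8, 84976909 to 84978748), a weaker activator that can oppose Jun, was at 60.5, 74.3 and 44.9 CPM in control and 40.1, 65.7 and 63.9 CPM in MaeaCsf1r-Cre libraries. Jund (chromosome 8, 70697739 to 70700616), the least inducible Jun protein, was at 70.3, 128 and 79.8 CPM in control and 56.9, 100.3 and 94.8 CPM in MaeaCsf1r-Cre libraries. These intronless genes differed least between the groups and varied least between libraries among the AP-1 genes. The log2 fold change was -0.09 for Junb (SE 0.25; limma, adjusted p = 0.981) and -0.14 for Jund (SE 0.28; limma, adjusted p = 0.973). With the block limma's adjusted p was 0.874 and 0.681.

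Egr1 (chromosome 18) encodes the zinc finger factor that serum response factor and ELK proteins switch on. It was at 36.3, 136 and 60.5 CPM in control and at 17.5, 50.2 and 72.0 CPM in MaeaCsf1r-Cre libraries. Its value in control replicate 2 was the highest by a wide margin, and MaeaCsf1r-Cre replicate 3 exceeded its own control. The means were 77.5 ± 51.9 and 46.5 ± 27.4 CPM (SD, n = 3 each), with a log2 fold change of -0.73 (SE 0.58; limma, adjusted p = 0.967, and 0.325 with the block).

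Ier2 (chromosome 8, 84661331 to 84662852), an intronless gene for a nuclear protein that takes part in the early response to growth factors, was at 66.2, 117 and 76.2 CPM in control libraries. In MaeaCsf1r-Cre it was at 47.5, 86.7 and 86.8 CPM. MaeaCsf1r-Cre replicates 2 and 3 lay within the control range and replicate 1 below it. Its log2 fold change was -0.24 (SE 0.29; limma, adjusted p = 0.967, and 0.492 with the block).

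Among the genes that end the response, Dusp1 (chromosome 17, 26505591 to 26508472) encodes a nuclear phosphatase of p38, JNK and ERK. It was at 53.9, 123 and 75.0 CPM in control and 22.5, 70.0 and 88.6 CPM in MaeaCsf1r-Cre libraries. On the log2 scale the difference was -1.22, -0.80 and 0.24 within replicate numbers 1, 2 and 3. The log2 fold change was -0.60 (SE 0.50; limma, adjusted p = 0.967, and 0.350 with the block).

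Zfp36 (chromosome 7, 28376784 to 28379228) encodes tristetraprolin, which binds AU-rich mRNAs such as those of cytokines and of Fos and recruits the deadenylase that shortens their tails. It was at 40.9, 112 and 80.2 CPM in control and 21.5, 71.9 and 77.8 CPM in MaeaCsf1r-Cre libraries, lower within every replicate number, with a log2 fold change of -0.52 (SE 0.52; limma, adjusted p = 0.967, and 0.266 with the block).

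Btg2 (chromosome 1, 134074865 to 134079155), an antiproliferative p53 target that also binds the CCR4-NOT deadenylase, was at 12.2, 17.2 and 18.9 CPM in control and 8.14, 16.6 and 14.5 CPM in MaeaCsf1r-Cre libraries. It was the one gene of the 10 whose highest value was in control replicate 3, and it too was lower within every replicate number. Its log2 fold change was -0.31 (SE 0.28; limma, adjusted p = 0.967, and 0.429 with the block).

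In order of level per kilobase in control HSCs, Fos, Ier2 and Jund came first, with 65.3 ± 37.5, 56.9 ± 17.8 and 55.6 ± 18.6 CPM per kb (SD, n = 3). Dusp1, Junb, Jun and Zfp36 followed between 36.3 and 27.9, then Egr1 at 17.3 ± 11.6, Btg2 at 5.86 ± 1.26 and Fosb at 3.41 ± 1.34 CPM per kb. Jund and Dusp1, and Btg2 and Fosb, differed by more than the SD of either gene, and all other neighbours in this order by less than the larger of their SDs. In MaeaCsf1r-Cre HSCs the level per kilobase was highest for Jund, at 50.4 ± 14.2 CPM per kb, followed by Ier2 at 48.4 ± 14.9 and Fos at 45.3 ± 31.0, which again lay within an SD of each other. The order depends on the GENCODE transcript lengths used. That of Jund was 1668 bases, starting at 70698949, while its RefSeq position starts at 70697739. The longer RefSeq span would give Jund a lower level per kilobase.

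Most of the variation of the 10 genes lay between replicate numbers. Of the sum of squares of log2(CPM + 1) over the 6 libraries, a median of 74.2% lay between replicate numbers (46.3% for Junb to 83.5% for Jund), which are 3 levels, and 11.5% between genotypes, which are 2. Over all genes tested the medians were 58.8% and 12.8%. The range over the 6 libraries had a median of 2.34 on the log2 scale, from 0.88 for Junb to 3.36 for Fos, against 0.62 for all genes tested. Fos thus differed 10.7-fold between its highest and lowest library. The deepest library, MaeaCsf1r-Cre replicate 1 with 60926000 reads behind its scaling, was the lowest for 10 of the 10 genes and for 30.3% of all genes tested.

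Within replicate numbers, the 10 genes were lower in MaeaCsf1r-Cre for numbers 1 and 2 and divided for number 3. Within number 1 all 10 were lower (53.1% of all genes), with a median log2 difference of -0.95, from -0.30 for Jund to -1.48 for Fos. Within number 2 all 10 were again lower (68.1% of all genes), with a median of -0.44, from -0.04 for Btg2 to -1.42 for Egr1. Within number 3 there were 4 lower genes (48.6% of all genes), namely Fos, Fosb, Zfp36 and Btg2, and the median was 0.21. Junb differed most upward there, by 0.50. The medians of all genes tested within the 3 numbers were -0.03, -0.14 and 0.01. Thus 4 of the 10 genes were lower within all 3 numbers, where 23.5% of all genes were, and 0 were higher within all 3, where 13.2% were.

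**Figure D2:**
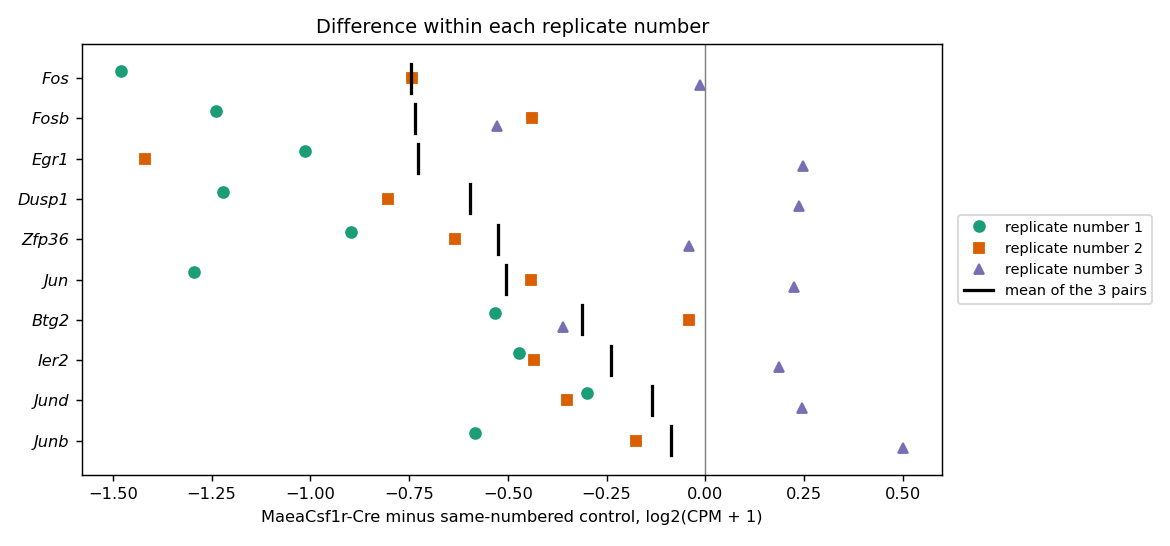
Difference between each MaeaCsf1r-Cre library and the control of the same replicate number in log2(CPM + 1) (horizontal axis) for each of the 10 genes, with the mean of the 3 as a black bar. Numbers 1 and 2 lie below 0 for all 10 genes, and for number 3 the values run from -0.53 for Fosb to 0.50 for Junb.

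The direction of the group depended on which libraries were compared. The median log2 fold change of the 10 genes was -0.51, against -0.06 for all genes tested. Without MaeaCsf1r-Cre replicate 1 it was 0.053, with 4 of the 10 genes below 0 (62.3% of all genes), while control replicate 1, the second lowest library for 9 of the 10, stayed in. Without both libraries of number 1, and with the block, it was -0.24 with 9 of the 10 below 0 (63.1% of all genes), a setting chosen after seeing the data. Without control replicate 2 it was -0.21 with 8 below 0 (61.5% of all genes). With any other library left out it was between -0.83 and -0.50 with all 10 below 0, where 60.9% of all genes were without control replicate 1, 58.4% without control replicate 3, 53% without MaeaCsf1r-Cre replicate 2 and 64.5% without MaeaCsf1r-Cre replicate 3. Without control replicate 1, the groups of 4 genes (Fos, Fosb, Zfp36 and Btg2) did not overlap, all 4 lower in MaeaCsf1r-Cre, where 20.6% of all genes were lower without overlap and 29% did not overlap in either direction. Leaving out any 1 library gave no adjusted p under 0.05 for any of the 10 genes in limma.

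**Figure D3:**
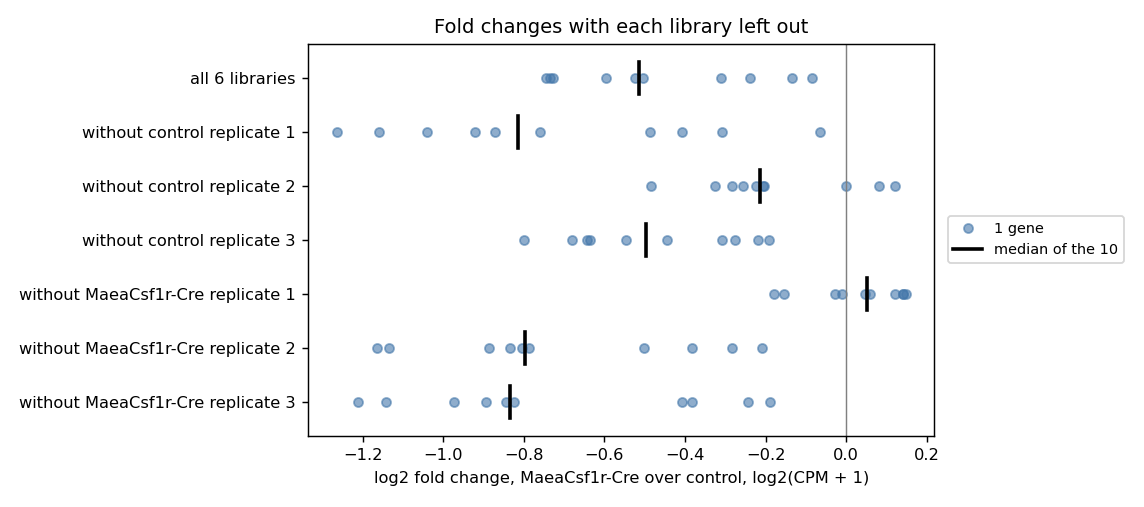
Log2 fold change of MaeaCsf1r-Cre over control on log2(CPM + 1) (horizontal axis) for each of the 10 genes (points) and their median (bar), with all 6 libraries and with each library left out. The median is -0.51 with all libraries and 0.053 without MaeaCsf1r-Cre replicate 1.

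The libraries that stood at the ends for the immediate early genes did so for the HSC markers too. The summed level of the 10 genes was 466, 1072 and 668 CPM in control and 261, 698.7 and 739 CPM in MaeaCsf1r-Cre libraries. The summed level of the 12 HSC markers was 1268, 1977 and 1831 CPM in control and 901, 1326 and 1676 CPM in MaeaCsf1r-Cre libraries, again with control replicate 2 highest and MaeaCsf1r-Cre replicate 1 lowest. Of the 12 HSC markers, which include genes of the sorting gate, 10 had a lower mean in MaeaCsf1r-Cre. Limma called 0 of the 12 at an adjusted p under 0.05 in either fit. At an unadjusted p under 0.05 it called 0 without and 8 with the block, where 3.99% and 13.9% of all genes were. Procr, the EPCR receptor by which HSCs are often sorted, was at 14.1, 39.3 and 22.6 CPM in control and 7.61, 19.7 and 24.5 CPM in MaeaCsf1r-Cre libraries. The part of these markers in the result was not tested.

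Macrophage markers were low, and their sum ordered the control libraries differently from the summed immediate early genes but the MaeaCsf1r-Cre libraries alike. Their sum over 11 genes was 76.3, 22.7 and 64.6 CPM in control and 4.08, 9.02 and 50.2 CPM in MaeaCsf1r-Cre libraries, so that control replicate 2, the highest for the immediate early genes, was the lowest control here. Of the 11 macrophage markers 8 were tested and all 8 had a lower mean in MaeaCsf1r-Cre. Limma called 0 at an adjusted p under 0.05 in either fit. At an unadjusted p under 0.05 it called 5 without and 6 with the block, where 3.99% and 13.9% of all genes were. The groups did not overlap, lower in MaeaCsf1r-Cre, for 4 of the 8 and for 6.06% of all genes. C1qb, a complement subunit made by tissue macrophages, was at 8.98, 3.79 and 5.37 CPM in control and 0.0328, 0 and 0.474 CPM in MaeaCsf1r-Cre libraries. None of the 11 stayed below 0.1 CPM in every library. Over 11 neutrophil and monocyte markers the sums were 33.4 to 244 CPM in control and 10.4 to 122 CPM in MaeaCsf1r-Cre libraries, with Camp and Ly6g below 0.1 CPM throughout. Over 8 erythroblast markers the sums were 537, 196 and 237 CPM in control and 507, 244 and 403 CPM in MaeaCsf1r-Cre libraries. This sum was highest in the first libraries of both groups, in which Fos and Jun were lowest, and lowest in control replicate 2, in which they were highest. Its largest part was Klf1, at 319, 119 and 94.0 CPM in control and 331, 122 and 202 CPM in MaeaCsf1r-Cre libraries. The globin genes of the list differed, each lower in MaeaCsf1r-Cre replicate 1 than in replicate 3. Hba-a1 was at 30.5, 11.3 and 26.0 CPM in control and 10.5, 17.6 and 32.5 CPM in MaeaCsf1r-Cre libraries. Over 6 megakaryocyte markers the sums were 461, 287 and 1293 CPM in control and 340, 693 and 424 CPM in MaeaCsf1r-Cre libraries. None of the erythroblast or megakaryocyte markers stayed below 0.1 CPM in every library. The part of these cells in the result was not tested.

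Heat shock genes are, with immediate early genes, known to respond when tissue is dissociated and cells are sorted. The 11 summed to 2583, 2262 and 2691 CPM in control and 3462, 2537 and 2691 CPM in MaeaCsf1r-Cre libraries. In this sum, of which Hspa8 was the largest part, MaeaCsf1r-Cre replicate 1 was highest and control replicate 2 lowest. For the immediate early genes MaeaCsf1r-Cre replicate 1 was the lowest library. Of the 9 tested, 6 had a higher and 3 a lower mean in MaeaCsf1r-Cre, the median log2 fold change was 0.11 (-0.037 without MaeaCsf1r-Cre replicate 1 and -0.028 without control replicate 2), and limma called 0 at an adjusted p under 0.05, and 0 without and 1 with the block at an unadjusted p under 0.05. Hspa8, the abundant constitutive HSP70, was at 1230, 1290 and 1613 CPM in control and 2036, 1539 and 1566 CPM in MaeaCsf1r-Cre libraries. The inducible Hspa1b was at 1.20, 1.18 and 0.787 CPM in control and 0.531, 2.90 and 1.74 CPM in MaeaCsf1r-Cre libraries. Unlike the sum, it was lowest in MaeaCsf1r-Cre replicate 1. Hspb1, which did not pass the filter, was also lowest there, at 0.268 CPM. Hspa1a, which did not pass it either, was at 0.125 CPM there, above control replicate 3 at 0.0897. The part of handling in the result was not tested.

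**Figure D4:**
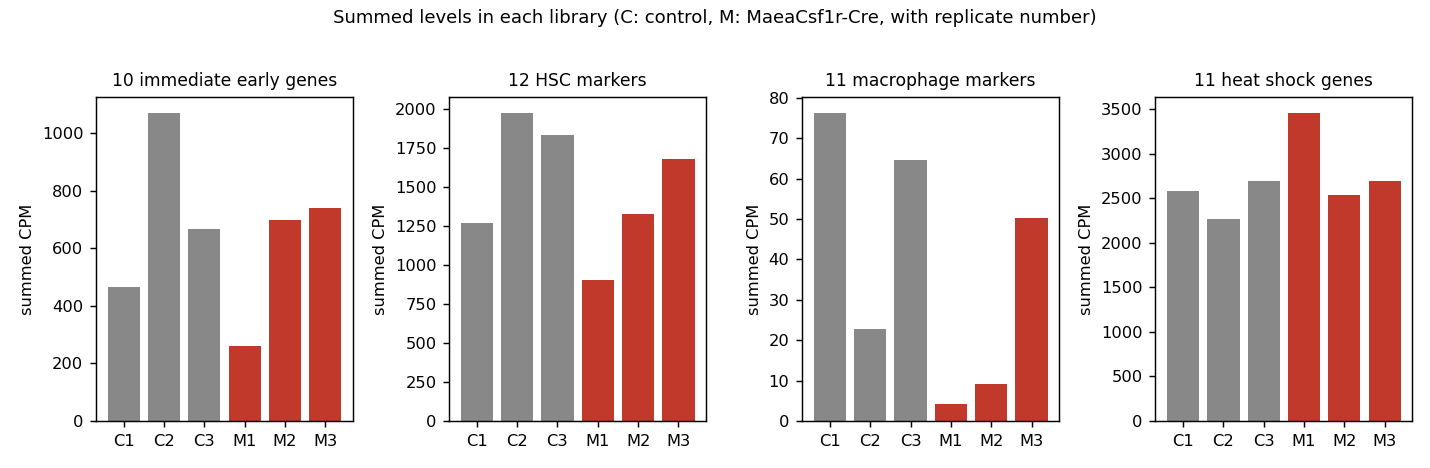
Summed CPM (vertical axes, linear and starting at 0) of the 10 immediate early genes, 12 HSC markers, 11 macrophage markers and 11 heat shock genes in each control (grey, C1 to C3) and MaeaCsf1r-Cre (red, M1 to M3) library. M1 is the lowest bar for the first 3 lists and the highest for heat shock genes, and C2 is the highest for the first 2 lists.

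Other immediate early genes divided by direction. Of 32 listed, 23 were tested, and 16 had a lower and 7 a higher mean in MaeaCsf1r-Cre, with a median log2 fold change of -0.28 and medians of -0.50, -0.28 and 0.20 within the 3 replicate numbers. Without MaeaCsf1r-Cre replicate 1 their median was 0.048, with 10 lower and 13 higher. Limma called 0 at an adjusted p under 0.05 in either fit. At an unadjusted p under 0.05 it called 1 without and 10 with the block, 7 of these 10 lower and 3 higher. Of all genes tested 3.99% were called without and 13.9% with the block, and these shares apply to the lists below too. Socs3, the feedback inhibitor of JAK-STAT signalling by cytokine receptors, was at 10.1, 11.3 and 4.59 CPM in control and 17.4, 39.3 and 18.04 CPM in MaeaCsf1r-Cre libraries. It was higher in every MaeaCsf1r-Cre library than in any control, the opposite of the 10 genes, with a log2 fold change of 1.40 (SE 0.40; limma, adjusted p = 0.967, and 0.141 with the block). The groups did not overlap upward for 2.49% of all genes tested.

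Plk2, a kinase induced by serum and by p53, was at 1.46, 5.68 and 5.37 CPM in control and 0.558, 0.634 and 3.02 CPM in MaeaCsf1r-Cre libraries. Sik1, a salt-inducible kinase that restrains CREB coactivators, and Klf2, a zinc finger factor of quiescence, were likewise lower within each of the 3 numbers, with log2 fold changes of -0.56 and -0.70. Limma's adjusted p for Plk2, Sik1 and Klf2 was 0.967 without the block and 0.247, 0.269 and 0.300 with it. Myc, the growth regulator, was at 182, 111 and 88.2 CPM in control and 145, 87.4 and 120 CPM in MaeaCsf1r-Cre libraries, with no common direction. Klf10, an early gene of TGF-beta, had the pattern of the 10 genes, with differences of -0.87, -0.86 and 0.22 within the 3 numbers. Egr2, Egr3, Egr4, Nr4a3, Cyr61 and Ptgs2 did not pass the filter and stayed below 0.4 CPM in every library. Klf4, Arc and Ier5l, which did not pass it either, reached at most 0.935, 1.20 and 1.11 CPM.

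Partners and upstream activators were mixed in direction. Of 12 tested AP-1 dimer partners, which are ATF, MAF, BATF and JDP proteins and further Fos relatives, 6 were higher and 6 lower, with a median of -0.03 that lay between 0.022 and 0.046 under other scalings and corrections. Limma called 0 at an adjusted p under 0.05, and 0 without and 1 with the block at an unadjusted p under 0.05. Jdp2, a repressive partner of Jun, was at 7.89, 12.8 and 11.8 CPM in control and 5.63, 7.59 and 9.13 CPM in MaeaCsf1r-Cre libraries, lower within every number. Atf4, the effector of the integrated stress response, was at 44.3, 60.8 and 55.6 CPM in control and 72.7, 79.8 and 53.1 CPM in MaeaCsf1r-Cre libraries. Fosl1, Atf3 and Batf3 did not pass the filter and reached at most 0.883 CPM.

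Of 12 serum response factor, ETS and CREB factors and their cofactors, 9 were lower and 3 higher, with a median of -0.15 (-0.00051 without MaeaCsf1r-Cre replicate 1, with 6 lower and 6 higher). Limma called 0 at an adjusted p under 0.05, and 0 at an unadjusted p under 0.05 with or without the block. Creb1, which binds TGACGTCA, was at 39.3, 40.9 and 34.1 CPM in control and 35.4, 25.4 and 30.9 CPM in MaeaCsf1r-Cre libraries. Of 26 genes of the MAP kinase cascade 21 were lower and 5 higher, with a median of -0.10, but with correction for transcript length 10 were lower and 16 higher, with a median of 0.029. Without MaeaCsf1r-Cre replicate 1 there were 22 lower and 4 higher, with a median of -0.094. Limma called 0 of them at an adjusted p under 0.05, and 2 without and 4 with the block at an unadjusted p under 0.05. Map3k1, an activator of the JNK arm, was at 41.0, 43.4 and 38.7 CPM in control and 25.4, 27.6 and 33.3 CPM in MaeaCsf1r-Cre libraries. Its groups did not overlap, and the log2 fold change was -0.51 (SE 0.15; limma, adjusted p = 0.967, and 0.232 with the block). Rps6ka3, an ERK-activated kinase that phosphorylates CREB and Fos, was higher in every MaeaCsf1r-Cre library than in any control, at 30.3, 35.4 and 32.5 CPM against 36.04, 51.0 and 43.5. Its log2 fold change was 0.39 (SE 0.16; limma, adjusted p = 0.967, and 0.262 with the block).

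Inhibitors that ERK signalling induces to limit itself, the other dual-specificity phosphatases with the Sprouty and Spred proteins, were mostly lower. Of 12 tested 10 were lower and 2 higher, with a median log2 fold change of -0.28, which was -0.46 without control replicate 1, -0.17 without MaeaCsf1r-Cre replicate 1 and -0.17 with quantile normalization. Within the 3 replicate numbers the medians were -0.55, -0.45 and -0.27, so that here number 3 had the sign of the others. Limma called 0 at an adjusted p under 0.05 in either fit. At an unadjusted p under 0.05 it called 1 without and 5 with the block. All 5 were lower, where 10.8% of all genes were called lower with the block. Dusp6, the cytoplasmic ERK phosphatase, was at 39.2, 57.8 and 51.9 CPM in control and 20.1, 32.1 and 37.4 CPM in MaeaCsf1r-Cre libraries. It was lower in every MaeaCsf1r-Cre library than in any control, which held for 6.06% of all genes tested, with a log2 fold change of -0.74 (SE 0.25; limma, adjusted p = 0.967, and 0.159 with the block). Dusp5, a nuclear ERK phosphatase, had a log2 fold change of -0.68, and Dusp4 one of -0.78, both lower within all 3 numbers.

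Among 17 tested relatives of Zfp36 and Btg2 and subunits of the CCR4-NOT deadenylase, 15 were lower and 2 higher, with a median of -0.13, and without MaeaCsf1r-Cre replicate 2 there were 10 lower and 7 higher, with a median of -0.012. Limma called 0 at an adjusted p under 0.05, and 1 with or without the block at an unadjusted p under 0.05. Tob1, an antiproliferative Btg family member that ties CCR4-NOT to mRNAs, was at 18.4, 22.8 and 20.01 CPM in control and 9.62, 9.38 and 16.0 CPM in MaeaCsf1r-Cre libraries. The groups did not overlap, and the log2 fold change was -0.79 (SE 0.23; limma, adjusted p = 0.967, and 0.218 with the block). Btg1 was at 41.2, 49.98 and 39.5 CPM in control and 27.2, 34.2 and 41.9 CPM in MaeaCsf1r-Cre libraries. Zfp36l2, a Zfp36 relative known for a role in HSC self-renewal, was at 465, 589 and 437 CPM in control and 322, 445 and 481 CPM in MaeaCsf1r-Cre libraries, with the same reversed order in number 3 as Jun and Dusp1.

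**Figure D5:**
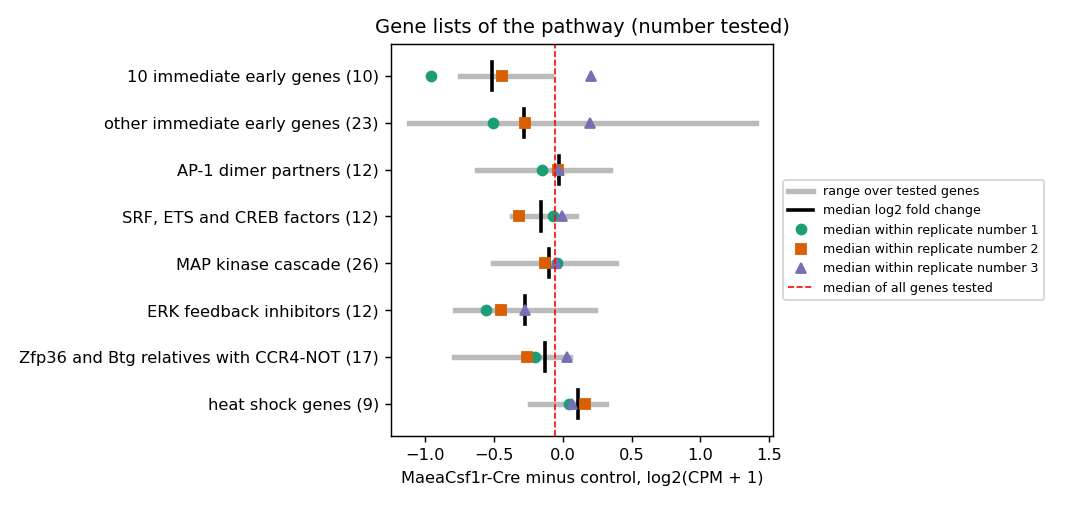
Log2 fold change of MaeaCsf1r-Cre over control on log2(CPM + 1) (horizontal axis) for the 10 immediate early genes and 7 lists of their pathway, with the range over tested genes (grey), the median (black bar), the medians within replicate numbers (coloured) and the median of all genes tested (dashed, -0.06). The median within number 3 is 0.21 for the 10 genes and -0.27 for the ERK feedback inhibitors.

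The genes whose pattern over the 6 libraries was most like the mean pattern of the 10 were sought among 9206 genes with a mean of at least 10 CPM, by the root mean square difference of centred log2(CPM + 1). These were Arhgap31 (0.11), Plcb2 (0.11), C1rl (0.12), Prdm16 (0.13) and Rgs3 (0.13), where the mean pattern itself spanned 2.004 on the log2 scale. Procr was the nearest gene to Egr1 (0.21) and to Dusp1 (0.14), and among the 3 nearest to Fos, Jun and Zfp36. Tbkbp1 was the nearest to Fos (0.42) and to Zfp36 (0.13), and Zfp532 to Fosb (0.18). The nearest were Nkx2-3 for Jun (0.20), Snx20 for Junb (0.06), Kif21b for Jund (0.05), Cd27 for Ier2 (0.06) and Cd63-ps, a pseudogene that may share reads with Cd63, for Btg2 (0.04). All of these patterns share the same 6 libraries and their scaling.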

How the data were processed

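RNA of sorted HSCs was read on a NextSeq instrument by the authors, from SMART-Seq v4 and Nextera XT libraries. The authors trimmed single-end reads with Trim Galore, aligned them to mm10 with STAR (2.5.3a), and quantified them to Ensembl transcripts (release 83) in Partek Flow. What they deposited is CPM for each gene symbol with 0.0001 added, and this amount was subtracted here. Of the low values 75.6 to 77.8% lay on whole reads (tolerance 0.02 of a read), too few to recover counts, and no count test was used. The listed genes took 75.2 to 80.2% of reads.

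Genes reaching 1 CPM in 3 or more libraries were tested two-sided on log2(CPM + 1) with limma (3.58.1, R 4.3.3), using a mean-variance trend and Benjamini-Hochberg adjustment over 12955 genes, threshold 0.05. Fold changes are on that scale, which understates those of low genes. The test was checked on simulated data. The study pooled a pair of mice for each replicate. That no mouse served more than 1 library is not given in the sources used here, so p-values measure the spread between these libraries.

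Replicate numbers come from the labels. Across genes, deviations from the group mean correlated between same-numbered libraries (r = 0.627, 0.523 and 0.397). Between differently numbered libraries r was -0.459 to -0.0538. Because the deviations of a group sum to 0, part of this contrast is built in. Each test was repeated with the number as a block.

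Transcript lengths and gene overlaps came from GENCODE annotation of GRCm38, matched by symbol (44119 of 46959 rows). The gene positions printed came from RefSeq annotation of the same build. The 10 genes and all lists were chosen with earlier results of these data known. Named from each list were up to 4 tested genes with the smallest p and 2 with the highest CPM, and the nearest patterns. Tried as alternatives were a pseudocount of 0.1, other filters, scalings, variance models, length and GC corrections, and leaving out libraries.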

Additional observations from a re-analysis of the deposited data

How the results depend on the processing

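All 10 genes lay far above the level of 3 reads. Across pseudocounts, filters, scalings, variance models and length or GC corrections, the median log2 fold change of the 10 genes stayed between -0.53 and -0.42 with all 10 below 0. With each library left out it ran from -0.83 to 0.053, and the number of genes with non-overlapping groups from 0 to 4, the 4 coming without control replicate 1, where 29% of all genes did not overlap. Without MaeaCsf1r-Cre replicate 1, log2 fold changes were above 0 for Fos (0.14), Jun (0.15), Junb (0.14), Jund (0.12), Ier2 (0.046) and Zfp36 (0.059). Without control replicate 2 they were above 0 for Junb (0.082) and Jund (0.12). With each library left out, Fos ran from -1.26 to 0.14, Jun from -0.83 to 0.15, Junb from -0.28 to 0.14, Jund from -0.31 to 0.12, Ier2 from -0.41 to 0.046, Zfp36 from -0.92 to 0.059, Dusp1 from -0.97 to -0.0093, Egr1 from -1.16 to -0.15, Fosb from -1.13 to -0.18 and Btg2 from -0.50 to -0.027. The cause was not tested.

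With the replicate block, for same-numbered libraries that deviated together, 5 of the 10 genes had an unadjusted p under 0.05 and 0 an adjusted one, and the block changed no call at the adjusted threshold. Over all genes, limma called 1 at an adjusted p under 0.05 with and without the block, 10 without the filter, 0 with a CPM of at least 10 (302 at an unadjusted p under 0.05), 12 with length correction and the block, and 0 to 1 with a library left out. Settings chosen after seeing the data gave 12 with GC correction and the block and 3 with median ratio scaling and the block. Also chosen after seeing the data, leaving out both libraries of number 1 or of number 2, with the block, gave 0 calls (770 and 886 at an unadjusted p under 0.05), and Junb was then at 0.16 without number 1. Leaving out both of number 3 gave 756 calls among 12397 genes tested, 6 of them among the 10 genes (Fos, Fosb, Jun, Egr1, Dusp1 and Zfp36, log2 fold changes -1.11, -0.84, -0.87, -1.22, -1.01 and -0.77), in a fit with 1 residual degree of freedom per gene. At an unadjusted p under 0.05 limma called 9 of the 10 genes and 20.4% of all genes in that fit.

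The median of the AP-1 partners, -0.03, was 0.024 without the filter, 0.037 with median ratio scaling, 0.022 with quantile normalization, 0.046 with length and 0.041 with GC correction, each correction and median ratio scaling giving the same with the block, and 0.023 without number 1. That of the MAP kinase cascade, -0.10, was -0.026 with median ratio scaling, -0.031 with quantile normalization, 0.029 with length and 0.0030 with GC correction, also with the block where that was fitted. That of the Zfp36 and Btg relatives, -0.13, was -0.021 with length correction with or without the block, and -0.21 to -0.012 with a library left out. The median of all genes, -0.058, was 0.012 with median ratio scaling, 0.015 with quantile normalization, 0.033 with length and 0.035 with GC correction. With a library left out the heat shock genes ran from -0.037 to 0.24 and the other immediate early genes from -0.49 to 0.048, while the median of all genes ran from -0.092 to -0.021.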

Other observations

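Most transcripts of vessel and stromal cells were highest, or nearly so, in the third libraries of both groups. Kdr, the VEGF receptor of endothelium, was at 12.4, 2.52 and 32.6 CPM in control and 2.33, 2.49 and 33.4 CPM in MaeaCsf1r-Cre libraries. Cdh5, the endothelial cadherin, was at 5.82, 0.278 and 13.0 CPM in control and 0.624, 0.566 and 22.1 CPM in MaeaCsf1r-Cre libraries. Lepr, a marker of perivascular stromal cells, was at 1.34 and 1.51 CPM in the third libraries and listed at 0 in the other 4. Col1a1, of the same 7 markers, differed, at 0.121, 0.530 and 0.0292 CPM in control and 0.181, 0 and 0.113 CPM in MaeaCsf1r-Cre libraries. Cxcl12, also of these markers, was high in the third control library only, at 0.0910, 0.429 and 4.15 CPM in control and 0.164, 0 and 0.271 CPM in MaeaCsf1r-Cre libraries. Vcam1, an adhesion molecule of macrophages and stroma, was listed with the macrophage markers. It was at 28.5, 2.60 and 26.7 CPM in control and 0.525, 0 and 30.0 CPM in MaeaCsf1r-Cre libraries. Between the third libraries 6 of the 10 immediate early genes were higher in MaeaCsf1r-Cre and 4 lower, where 48.6% of all genes were lower. Whether these transcripts have a part in the immediate early gene values was not tested.

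Mpo, the granule peroxidase of myeloid precursors, was at 181, 96.8 and 26.4 CPM in control and 90.4, 51.7 and 3.77 CPM in MaeaCsf1r-Cre libraries. It was lower within each of the 3 replicate numbers, as were 23.5% of all genes tested. Limma's adjusted p for Mpo was 0.967, and 0.198 with the block. Of the 5 tested neutrophil and monocyte markers 2 were lower within all 3 numbers, while Elane, Ccr2 and Itgam were mixed.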
